A study of Homo sapiens with 12 samples.

Results

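The BCL2 family genes with a role in loss of attachment were followed in A549, an adherent line established from a human lung adenocarcinoma. The members were taken by gene name from a list ordered by role: the anti-apoptotic genes BCL2, BCL2L1 and MCL1, the effector genes BAX and BAK1, and the BH3-only genes BCL2L11, BMF, BBC3, PMAIP1 and BID. All 10 members were among the 58735 genes of the count table and among the 17829 genes with enough counts to be tested. RNA-Seq was run on 4 groups of 3 libraries each: control cells kept attached, control cells floating after 48 hours of forced suspension, and the same pair of conditions in cells made to express the zinc-finger transcription factor GFI1 from a lentivirus with a GFP marker. The paper names culture-treated and ultra-low attachment plates in its anoikis method. Its RNA-Seq method names neither the plates nor the culture time of attached cells. The study's methods state that GFP-positive cells sorted by FACS were taken for RNA-Seq. They name an empty vector for the A549 controls of the animal assays. The labels call the control genotype only "control", and whether these controls carried that vector is not stated. The GFI1 comparisons therefore also hold whatever transduction itself did, if the controls were not transduced. The labels do not say that the 3 libraries of a group came from separate cultures, and p-values therefore measure the spread between these libraries, which may be technical.

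Cells that lose contact with their matrix can die by anoikis, a form of apoptosis decided largely at the mitochondrial outer membrane. BAX and BAK1 form the pores that release cytochrome c, BCL2, BCL2L1 (BCL-XL) and MCL1 hold them in check, and BH3-only proteins bind and neutralise the anti-apoptotic members or activate the effectors. BCL2L11 (BIM) and BMF are the BH3-only proteins best known from detached epithelial cells, BBC3 (PUMA) and PMAIP1 (NOXA) are p53 targets, and BID links death receptors to mitochondria.

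Libraries held between 17014188 and 20748677 counts, and mitochondrial transcripts took 6.15% to 7.11% of them. GFI1, the transgene, had 4 to 12 counts in control libraries and 5154 to 12796 in GFI1 libraries, so every library matched its label for genotype. The keratin gene KRT7 had 20498 to 37789 counts, and CDKN2A, which is deleted in A549, had 0 to 1, whereas the epithelial gene EPCAM had only 6 to 45 and the lung surfactant gene SFTPC 0 to 14. Of the leukocyte genes, PTPRC and CD3E had at most 1 count and CD14 had 73 to 229, and of the fibroblast genes DCN had 0, LUM 0 to 3, PDGFRA 3 to 28 and COL1A1 53 to 256. The replicates of the floating GFI1 group were less alike than those of other groups, with a chi-square per gene between pairs of 4.64 to 11.2 against 1.98 to 3.52 in the other groups, where 1 is the value for counting noise alone. These are bulk libraries, in which fewer cells with a transcript and less of it per cell cannot be told apart.

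In control cells, 48 hours without attachment raised 5 of the 10 members and lowered 4 (edgeR's quasi-likelihood test, Benjamini-Hochberg adjusted p of 0.05 or less). For comparison, 19.6% of all tested genes were higher and 20.5% lower. MCL1 and 4 of the 5 BH3-only genes, BMF, BBC3, PMAIP1 and BCL2L11, were higher in floating control cells, while BCL2, BCL2L1, BAK1 and BID were lower and BAX did not pass. The median absolute change of the members was 0.47 on the log2 scale, against 0.24 over all genes tested. In GFI1-expressing cells, suspension raised 2 members, MCL1 and BBC3, and lowered 6: BCL2, BCL2L1, BAK1, BCL2L11, BMF and BID. There, 15% of all genes were higher and 16.3% lower. The median change of the members was 0.16 in control cells and -0.27 in GFI1 cells, against 0.011 and 0.002 over all genes.

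**Figure D1:**
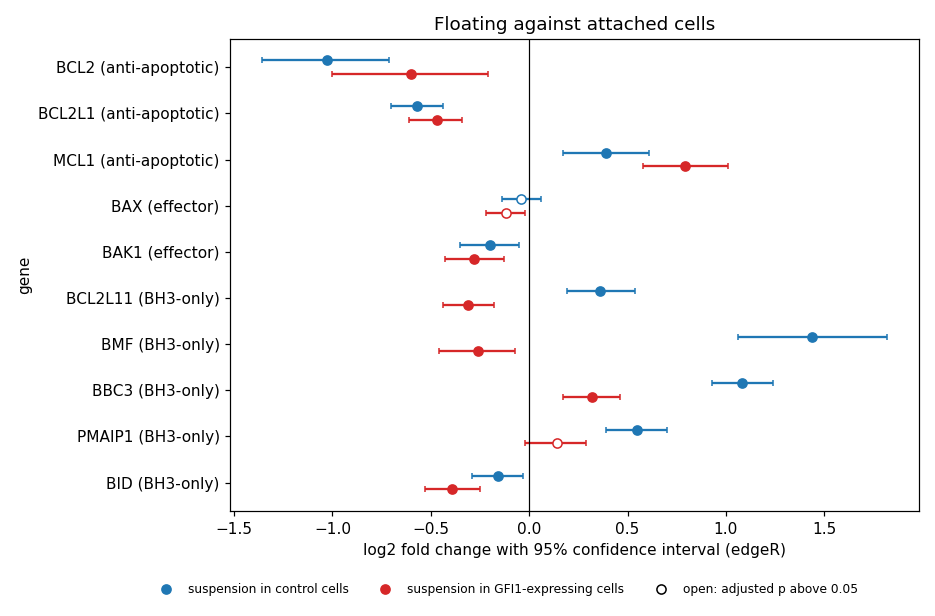
Log2 fold change of floating against attached cells (horizontal axis) for the 10 members (vertical axis), in control cells (blue) and GFI1-expressing cells (red), with bars for the 95% confidence interval from edgeR and open points where the adjusted p was above 0.05. BMF and BCL2L11 lie to the right of 0 in control cells and to the left of 0 in GFI1 cells, and MCL1 lies to the right in both.

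Among the anti-apoptotic genes, BCL2 (ENSG00000171791, chr18:63123346-63320128 on GRCh38, minus strand) was the least abundant. In CPM (counts brought to the same library size, with TMM factors), BCL2 stood at 7.15, 6.79 and 7.35 in the 3 attached control libraries and at 3.2, 3.31 and 3.85 in the floating control libraries. Every floating control library lay below every attached one, and the fall was by 1.03 ± 0.16 (SE) on the log2 scale, or 2.05-fold (adjusted p = 6.56e-06). Only 1.71% of the genes tested fell as far or further. In GFI1 cells BCL2 had 2.42, 3.23 and 2.55 CPM attached and 2.15, 1.6 and 1.69 CPM floating. These groups did not overlap either, at counts that reached as low as 29 a library, and the fall was by 0.60 ± 0.19 (adjusted p = 0.0172). That call was lost without attached GFI1 replicate 2 (-0.45, adjusted p = 0.121), floating GFI1 replicate 2 (-0.54, 0.0661) or floating GFI1 replicate 3 (-0.55, 0.0588), and its adjusted p ranged from 0.0113 to 0.121 over all alternatives.

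BCL2L1 (ENSG00000171552, chr20:31664452-31723989, minus strand) encodes BCL-XL from its long splice form and the pro-apoptotic BCL-XS from its short one, which gene counts do not separate. It had 197, 180 and 184 CPM in attached control cells against 130, 125 and 122 in floating ones, and 127, 126 and 120 CPM in attached GFI1 cells against 81.8, 105 and 81.9 in floating ones. Attached libraries lay above floating ones in both backgrounds, and the floating control and attached GFI1 libraries overlapped. Suspension lowered BCL2L1 by 1.49-fold in control cells (log2 change -0.57 ± 0.06, adjusted p = 8.11e-08) and by 1.39-fold in GFI1 cells (-0.47 ± 0.07, adjusted p = 3.68e-06). ABALON, an antisense gene inside BCL2L1 with 32 to 104 counts, also fell in control cells (-0.77 ± 0.17, adjusted p = 0.000889), and whether the counting used strand was not stated, so reads of the overlapping exons cannot be told apart.

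MCL1 (ENSG00000143384, chr1:150574551-150579738, minus strand), whose protein is short-lived, moved the other way. Its levels were 265, 272 and 268 CPM in attached control libraries and 355, 346 and 352 in floating control libraries. The 3 floating values were all higher, a rise of 1.31-fold (log2 change 0.39 ± 0.11, adjusted p = 0.00442). The rise missed the threshold under robust empirical Bayes shrinkage (adjusted p = 0.106) and in DESeq2 (0.0556), with a log2 change of 0.38 to 0.41 and an adjusted p of 4.13e-15 to 0.106 over all alternatives. In GFI1 cells, MCL1 went from 382, 399 and 385 CPM attached to 647, 874 and 498 CPM floating, again without overlap. The rise was 1.73-fold (0.79 ± 0.10, adjusted p = 1.53e-06), and it ranged from 0.54 without floating GFI1 replicate 2 to 0.97 without floating GFI1 replicate 3. Among the genes tested, 4.16% rose as far or further. The model used 1 estimate of the spread of each gene over all 4 groups. For MCL1 the SD was 190 CPM in floating GFI1 cells, against 3.6 in attached control, 4.68 in floating control and 8.97 in attached GFI1 cells. The SE and adjusted p of MCL1 may therefore be too small where floating GFI1 libraries enter and too large elsewhere. The 3 floating GFI1 libraries were spread more widely for MCL1 than the 3 libraries of any other group, and GFI1 itself stood at 545, 706 and 430 CPM in the same libraries, in the same order; the part of the transgene level in the MCL1 level was not tested.

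Of the effectors, BAK1 fell slightly and BAX did not pass. BAX (ENSG00000087088, chr19:48954815-48961798, plus strand) had 159, 157 and 158 CPM in attached control cells and 151, 146 and 164 in floating ones, and these sets overlapped. The log2 change was -0.04 with a 95% confidence interval of -0.14 to 0.06 (adjusted p = 0.54). In GFI1 cells BAX had 117 to 130 CPM attached and 109 to 115 CPM floating, a change of -0.12 with an interval of -0.22 to -0.02 that did not pass after adjustment (adjusted p = 0.0748). BAK1 (ENSG00000030110, chr6:33572547-33580293, minus strand), the effector that resides at the mitochondrial membrane, had 29.8, 28.5 and 31.9 CPM in attached control cells and 23.8, 28.1 and 26.7 in floating ones. Its floating libraries lay just below the attached ones, and the fall by 0.20 ± 0.07 was close to the threshold (adjusted p = 0.0329). It missed the threshold under upper quartile scaling, library size alone, DESeq2 (adjusted p = 0.0803) and without attached control replicate 1 or 3 or floating control replicate 1 or 3, with an adjusted p of 0.0172 to 0.189 over the alternatives. In GFI1 cells, BAK1 fell by 0.28 ± 0.07 (adjusted p = 0.0038), from 29.5 to 33 CPM attached to 24.2 to 26 CPM floating.

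**Figure D2:**
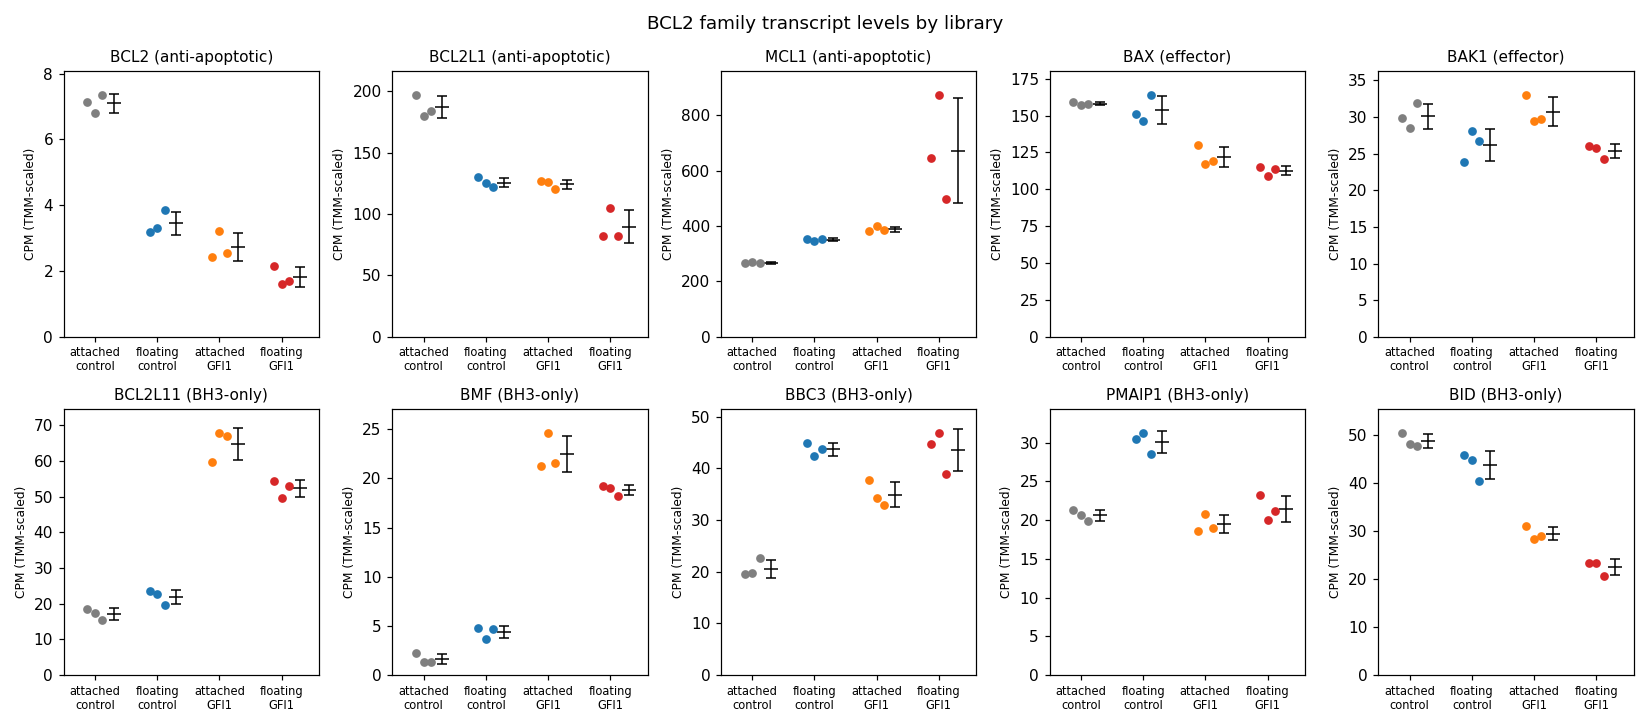
Transcript level of each member in CPM scaled by TMM (vertical axis, from 0) in the 4 groups (horizontal axis), with a point for each library and, beside it, the mean and SD of the 3 libraries. BMF stood at 1.32 to 2.2 CPM in attached control cells and 21.3 to 24.6 in attached GFI1 cells, and the 3 floating GFI1 libraries were widest apart for MCL1, at 498 to 874 CPM.

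The BH3-only genes BCL2L11 and BMF responded to suspension in opposite directions in the 2 kinds of cell. BMF (ENSG00000104081, chr15:40087890-40108892, minus strand) encodes a protein tethered to the actin and myosin motor complex of attached cells, and it was the member with the lowest level in attached controls. Its libraries held 37, 25 and 23 counts in attached control cells, or 2.2, 1.36 and 1.32 CPM, and 81, 61 and 83 counts in floating control cells, or 4.8, 3.67 and 4.7 CPM. The groups were separate, and BMF rose 2.71-fold (log2 change 1.44 ± 0.18, adjusted p = 6.12e-07), a rise that 1.89% of the genes tested reached. In GFI1 cells, BMF started from 21.3, 24.6 and 21.6 CPM attached and stood at 19.2, 19 and 18.2 CPM floating. All 3 floating GFI1 libraries were lower than the attached ones, with a fall by 0.26 ± 0.10 (adjusted p = 0.0366). That small fall was not called by DESeq2 (adjusted p = 0.0791) nor without attached GFI1 replicate 2 (-0.19, 0.213), attached GFI1 replicate 3 (-0.29, 0.0514), floating GFI1 replicate 1 (-0.29, 0.0531) or floating GFI1 replicate 3 (-0.24, 0.0857), with an adjusted p of 0.0194 to 0.213 over the alternatives.

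BCL2L11 (ENSG00000153094, chr2:111119378-111168447, plus strand) encodes BIM, which binds all anti-apoptotic members. It had 18.6, 17.3 and 15.3 CPM in attached control cells and 23.5, 22.6 and 19.7 in floating control cells. The ranges did not overlap, and the rise was 1.29-fold (0.36 ± 0.08, adjusted p = 0.00117). In GFI1 cells the order was turned, with 59.7, 67.8 and 67 CPM attached and 54.4, 49.6 and 53 CPM floating. Each floating GFI1 library was below each attached one, and the fall was 1.24-fold (-0.31 ± 0.06, adjusted p = 0.000536). The long noncoding gene MIR4435-2HG spans BCL2L11 on the opposite strand, with 198 to 1106 counts, and fell with suspension both in control cells (-0.69 ± 0.09, adjusted p = 4.64e-07) and in GFI1 cells (-0.46 ± 0.07, adjusted p = 1.05e-05). Since the strand setting was not stated, reads where the 2 genes overlap cannot be told apart.

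BBC3 (ENSG00000105327, chr19:47220822-47232766, minus strand), which encodes PUMA, was the BH3-only gene that rose in both kinds of cell. Its levels were 19.5, 19.7 and 22.6 CPM in attached control cells and 44.9, 42.3 and 43.8 in floating ones. This was a 2.12-fold rise with no overlap (1.08 ± 0.08, adjusted p = 2.22e-11). In GFI1 cells BBC3 had 37.7, 34.2 and 32.9 CPM attached and 44.8, 46.8 and 38.9 CPM floating. The floating GFI1 values were all higher, by 1.25-fold (0.32 ± 0.07, adjusted p = 0.000956). PMAIP1 (ENSG00000141682, chr18:59899948-59904306, plus strand), which encodes NOXA, a BH3-only protein that binds chiefly MCL1, had 21.3, 20.6 and 19.9 CPM in attached control cells and 30.5, 31.2 and 28.5 in floating ones. Its rise was 1.46-fold (0.55 ± 0.07, adjusted p = 1.24e-06). In GFI1 cells the PMAIP1 libraries overlapped, at 18.6 to 20.8 CPM attached and 20 to 23.2 CPM floating, and the change of 0.14 did not pass (95% confidence interval -0.02 to 0.29, adjusted p = 0.175). BID (ENSG00000015475, chr22:17734138-17774770, minus strand), whose protein is cut by caspase-8, had 47.7 to 50.3 CPM attached and 40.3 to 45.8 floating in control cells. That fall by 0.16 ± 0.06 had an adjusted p of 0.0433, which ranged from 0.0251 to 0.238 over the alternatives and missed the threshold under RLE, upper quartile and library size scaling, both other count filters, DESeq2 and when any one library of either group other than floating control replicate 1 was left out. In GFI1 cells BID fell by 1.31-fold, from 28.3 to 30.9 CPM to 20.6 to 23.4 CPM (-0.39 ± 0.07, adjusted p = 8.38e-05).

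The difference between the suspension effects was then tested in the same model, since a change that passed in one kind of cell and missed in the other does not show that they differ. For 4 members the response to suspension was lower in GFI1 cells than in control cells, and all 4 were BH3-only genes. Over all genes tested, 6.01% had a lower and 4.76% a higher response in GFI1 cells. BMF had the largest difference among the members, -1.70 ± 0.21 on the log2 scale (adjusted p = 2.96e-06), a value at or below which lay 0.623% of the genes tested. BBC3 followed with -0.77 ± 0.10 (adjusted p = 1.23e-05), BCL2L11 with -0.67 ± 0.11 (9.48e-05) and PMAIP1 with -0.41 ± 0.10 (0.0113). BID had a difference of -0.23 ± 0.09 that did not pass (adjusted p = 0.124). The other 5 members did not pass either, and 0 members had a higher response in GFI1 cells by edgeR's adjusted p. MCL1 was the only member higher at an unadjusted p below 0.05, with a difference of 0.40 ± 0.15 (95% confidence interval 0.10 to 0.71, adjusted p = 0.0856), and DESeq2 gave 0 such members at either level. Without floating GFI1 replicate 3 the MCL1 difference was 0.58 (adjusted p = 1.75e-05), and without floating GFI1 replicate 2 it was 0.15, with an adjusted p from 8.54e-09 to 0.378 over the alternatives. For BCL2 and BCL2L1, the differences of 0.43 ± 0.25 (adjusted p = 0.32) and 0.10 ± 0.09 (0.594) were not distinguishable from 0.

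The starting levels of the 2 kinds of cell differed. In attached cells, 4 members were higher with GFI1, namely BMF, BCL2L11, BBC3 and MCL1, and 4 were lower, namely BCL2, BCL2L1, BAX and BID. Among all genes tested, 29.5% were higher and 32.8% lower in this comparison, so 4 of 10 in each direction was not far above the background. The median absolute change was 0.66 for the members against 0.40 for all genes. BMF was 13.9-fold higher in attached GFI1 cells (log2 change 3.80 ± 0.14, adjusted p = 9.19e-18), which placed it among the highest 0.74% of genes. BCL2L11 was 3.81-fold higher (1.93 ± 0.07, adjusted p = 1.92e-17), with MIR4435-2HG on its opposite strand 2.34-fold higher, and BBC3 was 1.69-fold higher (0.76 ± 0.08, adjusted p = 3.89e-09). The suspension and GFI1 comparisons share the attached libraries, so their values for a gene are not independent. Of the members that were lower, BCL2 was 2.57-fold lower (-1.36 ± 0.16, adjusted p = 3.97e-08), BID 1.66-fold (-0.73 ± 0.06, adjusted p = 2.27e-10), BCL2L1 1.5-fold (-0.59 ± 0.06, adjusted p = 1.44e-08) and BAX 1.29-fold (-0.37 ± 0.05, adjusted p = 2.79e-07). MCL1 was 1.45-fold higher (0.54 ± 0.11, adjusted p = 9.49e-05).

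In floating cells, 3 members were higher with GFI1 and 5 were lower, where 29.3% of all genes were higher and 31.1% lower. BMF remained 4.27-fold higher than in floating controls (2.09 ± 0.12, adjusted p = 8.04e-14), BCL2L11 2.39-fold (1.26 ± 0.07, adjusted p = 1.06e-13) and MCL1 1.92-fold (0.94 ± 0.10, adjusted p = 2.28e-08). BBC3 did not pass here, with overlapping libraries and a log2 change of -0.01 (95% confidence interval -0.15 to 0.14, adjusted p = 0.945). PMAIP1 was 1.4-fold lower in floating GFI1 cells (-0.49 ± 0.07, adjusted p = 2.4e-06) although it did not pass in attached ones (-0.08 ± 0.08, adjusted p = 0.385). The lower levels of BID (1.94-fold, -0.96 ± 0.07, adjusted p = 3.19e-12), BCL2 (1.91-fold, -0.93 ± 0.19, adjusted p = 0.000133), BCL2L1 (1.41-fold, -0.49 ± 0.07, adjusted p = 5.73e-07) and BAX (1.36-fold, -0.45 ± 0.05, adjusted p = 1.58e-08) were seen again. BAK1 did not pass in either condition (0.03 ± 0.07, adjusted p = 0.734, and -0.05 ± 0.07, adjusted p = 0.574). With scaling by library size alone the median of all genes moved to 0.14 in both GFI1 comparisons, and 61.5% and 61.4% of the genes that passed were then higher, against 47.4% and 48.5% with TMM. Under that scaling BAK1 was higher with GFI1 in attached cells (0.18, adjusted p = 0.0335), little more than the shift of the median.

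**Figure D3:**
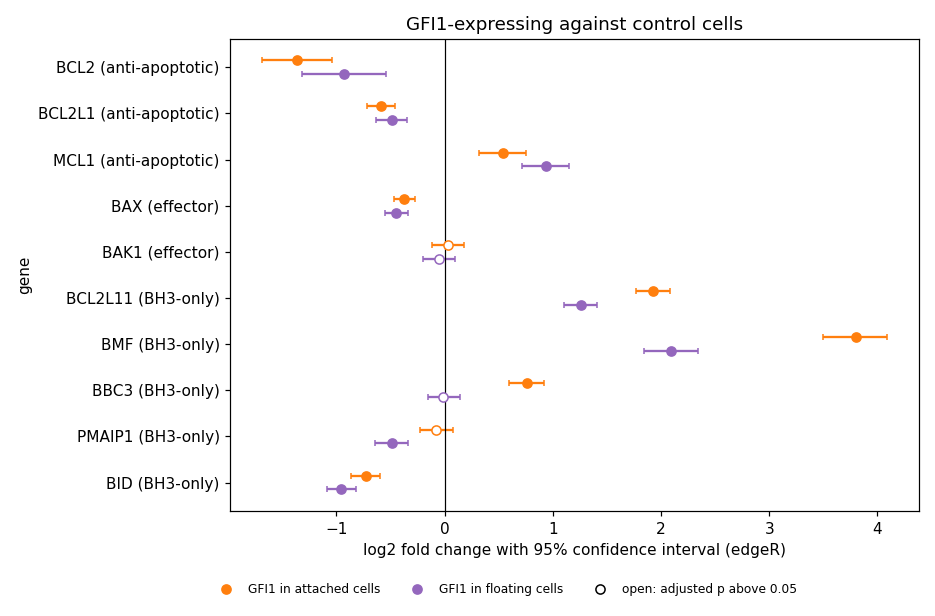
Log2 fold change of GFI1-expressing against control cells (horizontal axis) for the 10 members (vertical axis), in attached cells (orange) and floating cells (purple), with 95% confidence intervals from edgeR and open points where the adjusted p was above 0.05. BMF reached 3.80 in attached and 2.09 in floating cells, and the 2 effectors BAX and BAK1 lay between -0.45 and 0.03.

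The order of the levels over the 4 groups differed between members. BMF went up from attached control (1.63 ± 0.499 CPM, SD, n = 3) to floating control (4.39 ± 0.625), floating GFI1 (18.8 ± 0.568) and attached GFI1 cells (22.5 ± 1.86), with no overlap between neighbours, and BCL2L11 had the same order. BBC3 was lowest in attached control cells (20.6 ± 1.76 CPM), followed by attached GFI1 cells (34.9 ± 2.52), and its 2 floating groups overlapped at 43.5 ± 4.09 and 43.7 ± 1.28. PMAIP1 stood apart only in floating control cells (30.1 ± 1.4 CPM), and the other 3 groups overlapped between 18.6 and 23.2 CPM. BCL2 was lowest in floating GFI1 cells (1.81 ± 0.296 CPM) and highest in attached control cells (7.09 ± 0.282), and its 2 middle groups overlapped. MCL1 took the reverse order of the end points, from 268 ± 3.6 CPM in attached control cells to 351 ± 4.68, 389 ± 8.97 and 673 ± 190 CPM in floating control, attached GFI1 and floating GFI1 cells, with no overlap between neighbours.

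The members were also compared with each other as CPM per kilobase of the deposited gene length. That is 1 length per gene and not the length of the transcripts in use, so the order, shares and ratios below depend on it. Without length, the attached control means were 268 CPM for MCL1, 187 for BCL2L1 and 158 for BAX. Per kilobase, MCL1 (61.3 ± 0.824 CPM per kilobase, SD, n = 3), BAX (61 ± 0.498) and BCL2L1 (56.4 ± 2.6) were the most abundant in attached control cells. On this scale MCL1 and BAX did not differ beyond their spread. BAK1 (13.6 ± 0.774), BID (10.9 ± 0.323), PMAIP1 (9.21 ± 0.314), BBC3 (6.47 ± 0.554) and BCL2L11 (2.56 ± 0.255) followed. BCL2 (0.603 ± 0.024) and BMF (0.299 ± 0.0917) were lowest.

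As a share of the summed level of the 10 members, MCL1 went from 27.6% ± 0.745 (SD, n = 3) in attached control cells to 34.8% ± 0.189 in floating control, 39% ± 1.06 in attached GFI1 and 55.1% ± 6.11 in floating GFI1 cells. BCL2L1 went the opposite way, from 25.4% ± 0.821 to 16.5% ± 0.547, 16.5% ± 0.244 and 9.85% ± 0.782. The 2 shifts nearly offset each other in control cells, where the 3 anti-apoptotic genes together held 53.2% ± 0.272 attached and 51.4% ± 0.715 floating, whereas they held 55.6% ± 1.04 in attached and 65% ± 5.7 in floating GFI1 cells. The share of the 5 BH3-only genes was 13.3% ± 0.0973 in attached control cells, 17.8% ± 0.741 in floating control cells, 17.6% ± 0.31 in attached GFI1 cells and 14.6% ± 2.11 in floating GFI1 cells. Their summed level per kilobase was 29.5 ± 0.587 CPM in attached control cells, 41.1 ± 1.55 in floating control cells, 40.2 ± 0.88 in attached GFI1 cells and 39.7 ± 1.92 in floating GFI1 cells. The ratio of BH3-only to anti-apoptotic transcripts was 0.25, 0.248 and 0.249 in attached control libraries and 0.352, 0.353 and 0.335 in floating control libraries. It was 0.318, 0.317 and 0.317 in attached GFI1 libraries and 0.24, 0.172 and 0.271 in floating GFI1 libraries. Floating control libraries had the highest ratios, and the floating GFI1 libraries, which spread most, lay on either side of the attached controls. These ratios are descriptions of transcripts over a chosen set of genes and carry no test.

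**Figure D4:**
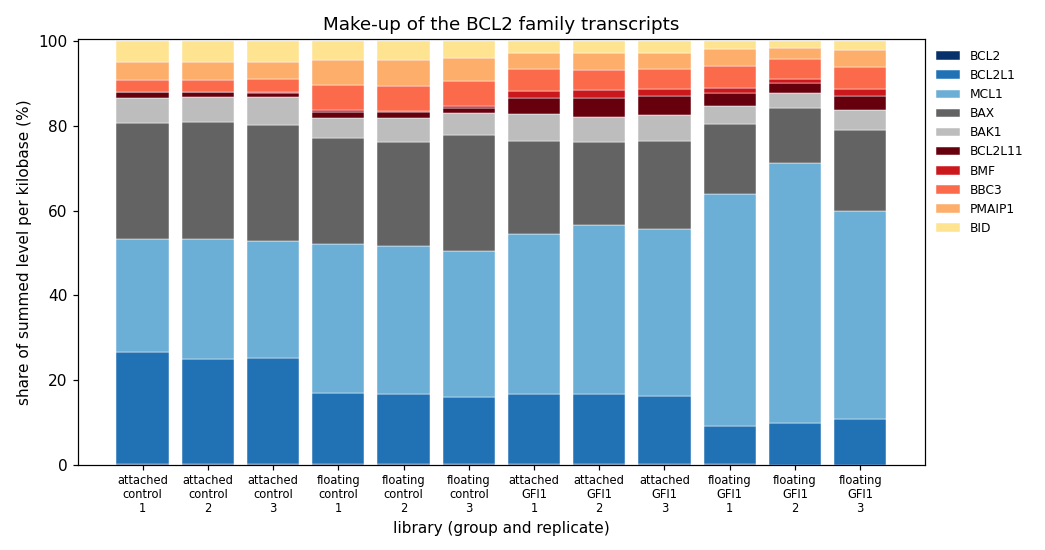
Share of each member in the summed level per kilobase of the 10 members (vertical axis, %) in each of the 12 libraries (horizontal axis, by group and replicate), with anti-apoptotic genes in blue, effectors in grey and BH3-only genes in red to yellow. MCL1 took 26.8% to 28.3% of the sum in attached control and 49.2% to 61.4% in floating GFI1 libraries.

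The promoters of BMF and BCL2L11 are shown because these 2 BH3-only genes had the largest differences between GFI1 and control cells, a choice made after their values were seen. GFI1 acts mostly as a repressor, although the paper reports that it also raised RASGRP2, and it recognises a site with the core AATC. Forkhead factors, which are known to drive BCL2L11, recognise GTAAACA. Each run gives the 250 bases before the start of the RefSeq transcript (GRCh38.p14), read 5′ to 3′ on the strand of the gene, with AATC or its reverse complement GATT, and GTAAACA, in capitals. The BMF window is chr15:40108880-40109129 on the minus strand, and 13 of its bases overlap an annotated exon of the gene. The BCL2L11 window is chr2:111120664-111120913 on the plus strand, inside the deposited gene model, and it overlaps no annotated exon of the gene; the transcript start just after it lies 1536 bases from the 5′ end of that model.
BMF: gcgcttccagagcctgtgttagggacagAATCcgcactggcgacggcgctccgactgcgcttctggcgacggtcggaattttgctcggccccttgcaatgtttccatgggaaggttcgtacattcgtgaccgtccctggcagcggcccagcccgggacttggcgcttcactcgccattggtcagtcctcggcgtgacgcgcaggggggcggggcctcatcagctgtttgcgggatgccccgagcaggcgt
BCL2L11: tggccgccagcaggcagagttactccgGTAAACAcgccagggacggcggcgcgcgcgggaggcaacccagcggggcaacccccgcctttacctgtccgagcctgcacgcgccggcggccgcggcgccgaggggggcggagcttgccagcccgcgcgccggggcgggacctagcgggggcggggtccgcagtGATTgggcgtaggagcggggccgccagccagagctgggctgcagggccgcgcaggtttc
BMF held AATC once, at position -222 from the transcript start. BCL2L11 held it once on the opposite strand, at -59, and GTAAACA once, at -223. RefSeq promoters were matched for 9 of the 10 members, all but MCL1. AATC on either strand was found in 7 of these 9 and in 64.8% of all 35116 promoters, and GTAAACA in 1 of 9 and in 2.98%. ACGTG, the core of the hypoxia response element and part of the E-box CACGTG, was found on either strand in 2 of 9, BAX and BBC3, and in 18.5% of all promoters. A match of these letters is a description of the sequence only and says nothing of whether a factor was bound.

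Some other BCL2 family genes also changed with suspension. Of 13 such genes 11 were tested, of which suspension raised 4 and lowered 1 in control cells (median 0.10) and raised 5 and lowered 1 in GFI1 cells (median 0.26). The shares of all genes against which this and the following lists stand were 19.6% higher and 20.5% lower in control cells, and 15% and 16.3% in GFI1 cells. BNIP3L, a BH3-like mitophagy receptor, rose 3.03-fold in control cells (1.60 ± 0.08, adjusted p = 1.9e-14) and 2.63-fold in GFI1 cells (1.40 ± 0.07, adjusted p = 3.2e-13). BNIP3, its close relative, rose 2.33-fold (1.22 ± 0.06, adjusted p = 2.12e-14) and 2.17-fold (1.12 ± 0.06, adjusted p = 8.25e-13). BCL2L15 rose as well (0.62 ± 0.11 and 0.74 ± 0.09, adjusted p = 6.39e-05 and 1.02e-06), and BCL2L12 fell (-0.37 ± 0.06 and -0.54 ± 0.07, adjusted p = 3.66e-05 and 1.02e-06). BOK, a BAX-like effector, was the only one of the 11 whose response differed between the 2 kinds of cell (difference 0.63 ± 0.16, adjusted p = 0.00907). BAD, BIK and HRK, the other BH3-only genes of this list, did not pass in either suspension comparison, and BIK and HRK stayed near 1 CPM or below.

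In the apoptosome and caspase list, 3 of the 16 genes were higher and 4 lower with suspension in control cells, and likewise 3 and 4 in GFI1 cells. CYCS, which encodes cytochrome c, fell in both (-0.37 ± 0.04, adjusted p = 8.62e-08, and -0.44 ± 0.04, adjusted p = 1.41e-08). The initiator CASP2 fell in both (-0.63 ± 0.06, adjusted p = 2.45e-09, and -0.41 ± 0.06, adjusted p = 5.34e-06). The initiator CASP8 rose slightly in both (0.18 ± 0.05, adjusted p = 0.00939, and 0.15 ± 0.05, adjusted p = 0.0193). CASP10 led the higher genes in GFI1 cells (0.51 ± 0.10, adjusted p = 0.000165). All 6 inhibitor of apoptosis genes were tested. In control cells 5 were higher and 1 was lower, and in GFI1 cells 2 were higher and 1 was lower, led in both by BIRC7 (1.13 ± 0.10, adjusted p = 6.49e-10, and 0.99 ± 0.07, adjusted p = 2.14e-11) and, on the lower side, by BIRC5, the survivin gene of dividing cells (-0.62 ± 0.04, adjusted p = 1.97e-11, and -0.72 ± 0.05, adjusted p = 9.85e-12). In the death receptor pathway, which acts on mitochondria through BID, 4 of 9 tested genes were higher and 2 lower in control cells, and 4 were higher and 0 lower in GFI1 cells. The TRAIL receptor gene TNFRSF10B led the higher ones in both (0.23 ± 0.04, adjusted p = 0.000124, and 0.35 ± 0.05, adjusted p = 1.34e-06), and FADD, the adaptor of these receptors, fell in control cells (-0.26 ± 0.07, adjusted p = 0.00594).

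Genes that act on the members themselves were counted in 2 further lists. Of the 7 genes for partners and turnover of BCL2 family proteins, 1 was higher and 5 were lower with suspension in control cells, and 1 was higher and 1 lower in GFI1 cells. FBXW7, a ubiquitin ligase subunit that marks MCL1 protein for destruction, rose in both (0.43 ± 0.08, adjusted p = 0.000122, and 0.31 ± 0.06, adjusted p = 0.00046). PTRH2, a mitochondrial anoikis regulator, was the gene that fell in GFI1 cells (-0.20 ± 0.06, adjusted p = 0.0114), and it fell in control cells too (-0.24 ± 0.06, adjusted p = 0.00267). DYNLL2, the dynein light chain that tethers BMF, fell in control cells (-0.40 ± 0.05, adjusted p = 8.44e-07), and its response differed between the 2 kinds of cell (difference 0.38 ± 0.07, adjusted p = 0.000733). Of the 12 transcription factors known to act on BH3-only genes, 4 were higher and 4 lower in control cells and 4 were higher and 3 lower in GFI1 cells. TP63 rose in control cells (0.99 ± 0.09, adjusted p = 4.74e-09) and had a mean of 1.92 CPM in attached and 1.88 CPM in floating GFI1 cells. E2F1 fell in both control and GFI1 cells (-0.91 ± 0.06, adjusted p = 2.83e-11, and -0.46 ± 0.07, adjusted p = 4.88e-06). MYC fell in both as well (-0.30 ± 0.05, adjusted p = 2.02e-05, and -0.70 ± 0.06, adjusted p = 4.1e-10). DDIT3, a factor of the unfolded protein response, led the higher genes in GFI1 cells (0.58 ± 0.13, adjusted p = 0.000743).

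For each member called in a suspension comparison, the genes most like it over the 12 libraries were found by the Pearson correlation of log2 CPM among 11886 genes. BMF was most like DDR1 and ACY3 (r = 0.995 and 0.992), BCL2L11 like STX1A and P2RY6 (both 0.995) and BID like RPSA and MYC (0.996 and 0.992). MCL1 was most like MKNK2 and STC2 (0.99 and 0.986), BBC3 like ABTB1 and CA9 (0.98 and 0.977), PMAIP1 like TTC39A and RAB37 (0.98 and 0.972), BCL2 like GAR1 and HNRNPA3 (0.989 and 0.986), and BCL2L1 like THAP4 and C19orf48 (0.983 and 0.98). BAK1 had lower values, with 0.879 for C18orf54 and 0.871 for NDC80. Among the members, BCL2L11 and BMF had the highest correlation with each other (r = 0.98). These correlations describe 4 groups of 3 libraries that share the same design, and the libraries of a group are not independent points.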

How the data were processed

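The mRNA of control and GFI1-expressing A549 cells, attached or floating, was sequenced in 12 libraries, 3 in each of 4 groups set by the sample labels. The deposited values are raw counts per gene, made by the authors from reads aligned to GRCh38. The study's methods name FastQC, Hisat2 and featureCounts, while the submitters' processing notes list Bowtie2, HTSeq and hg38 with no role given. The annotation release and the strand setting were not given in the sources used here. A spreadsheet had changed 27 of the symbols in the deposited table to dates. Coordinates and gene lengths are those of the table, and none of the columns held samples beyond the 12.

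The counts were analysed with edgeR 4.0.16 in R 4.3.3. Genes were kept by filterByExpr (minimum count 10, minimum total 15), scaled by TMM and fitted with 1 quasi-likelihood model of 4 group means (biological coefficient of variation 4.86%). Contrasts were tested two-sided, adjusted by Benjamini-Hochberg over all genes tested, and called at an adjusted p of 0.05 or less. The SE was the absolute log2 change divided by the square root of F, with 95% confidence intervals by t. CPM are scaled by TMM. Correlations used log2 CPM with a prior count of 2 over protein-coding genes whose mean was 1 or more. Counts of 0 to 3 were not compared as folds.

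All members were named. Of each pathway list, the strongest call by adjusted p, in either direction, of each suspension comparison was named, and any gene of the list of other BCL2 family genes. The members and lists were chosen with earlier results of these data known. The alternatives were DESeq2 1.42.0, RLE, upper quartile and library size scaling, robust empirical Bayes, a filter of 10 or more counts in all libraries, no filter at all, a replicate block, only the groups compared, a fold of at least 1.5 as well, and leaving out each library. The code was tested on simulated data. Same-numbered libraries of different groups did not deviate together (correlations of -0.0306 to 0.0311 over 18 pairs).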

Additional observations from a re-analysis of the deposited data

Results flagged for a closer look

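The response to suspension differed between GFI1-expressing and control cells by the test of the difference itself for 4 members, all of them BH3-only genes. On the log2 scale the difference was -1.70 for BMF, -0.77 for BBC3, -0.67 for BCL2L11 and -0.41 for PMAIP1, each the response in GFI1 cells minus that in control cells. When each library was left out in turn, the difference stayed between -1.97 and -1.58 for BMF, between -0.84 and -0.69 for BBC3, between -0.74 and -0.60 for BCL2L11 and between -0.48 and -0.35 for PMAIP1, and its adjusted p in edgeR and DESeq2 was at most 0.0474 under any alternative. The PMAIP1 difference was 1.33-fold, so it was not called where a fold of at least 1.5 was also asked for. With 3 libraries in a group, no search for outlying single libraries was made.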

How the results depend on the processing

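Of the 37 calls made on members, 32 kept their direction and their side of the threshold under all alternatives run that did not ask for a larger fold (21, of which the fit of only the groups compared could not be made for the difference between suspension effects); the exceptions were MCL1, BAK1 and BID with suspension in control cells and BCL2 and BMF with suspension in GFI1 cells. The number of members lower with suspension in control cells was 2 under upper quartile scaling, library size scaling and DESeq2, and that of members with a higher response in GFI1 cells was 1 without the low-count filter, where MCL1 passed (0.42, adjusted p = 8.54e-09); the cause was not tested. When a fold of at least 1.5 was also asked for, a stricter rule by construction, 2 members were higher and 1 lower with suspension in control cells, 1 higher and 1 lower in GFI1 cells, and 2 lower with GFI1 in floating cells. That rule also dropped PMAIP1 from the difference between the suspension effects (1.33-fold). In attached cells it dropped MCL1 (1.45-fold higher with GFI1) and BAX (1.29-fold lower). Leaving out each library gave 2 to 4 members lower with suspension in control cells, 4 to 6 lower in GFI1 cells and 0 to 1 with a higher response in GFI1 cells, the 1 being MCL1 without floating GFI1 replicate 3. Some changes that had not passed turned direction: BBC3 with GFI1 in floating cells (0.04 under upper quartile scaling, 0.12 under library size scaling, 0.01 with at least 10 counts in every library), PMAIP1 with GFI1 in attached cells (0.07) and BAK1 with GFI1 in floating cells (0.08), the last 2 under library size scaling. Across left-out libraries, BAK1 with GFI1 in attached cells ran from -0.02 to 0.07, BBC3 with GFI1 in floating cells from -0.06 to 0.07 and the BCL2L1 difference from -0.05 to 0.16. The replicate numbers did not pair the libraries, and a replicate block left the numbers of members called at 9, 8, 4, 8 and 8 in the suspension comparisons of control and GFI1 cells, their difference, and the GFI1 comparisons of attached and floating cells, with the same genes as without it. Depth limited BMF in attached control cells (23 to 37 counts) and BCL2 in floating GFI1 cells (down to 29 counts).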

Other observations

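GFI1 expression also went with changes in genes of the other lists of cell death genes. Of the 16 genes of the apoptosome and caspase list, GFI1 raised 2 and lowered 12 in attached cells (median -0.25, against -0.007 over all genes tested, of which 29.5% were higher and 32.8% lower). It raised 3 and lowered 9 in floating cells (median -0.20, against 0.011 over all genes, of which 29.3% were higher and 31.1% lower). CYCS, the cytochrome c gene, had a mean of 367 CPM in attached control and 215 CPM in attached GFI1 cells (log2 change -0.77 ± 0.04, edgeR adjusted p = 3.39e-14) and was also lower in floating cells (-0.84 ± 0.04, adjusted p = 7.9e-15). The initiator caspase genes CASP8 and CASP10 were higher in both conditions (CASP8 by 0.55 ± 0.05 and 0.53 ± 0.05, CASP10 by 0.48 ± 0.11 and 0.80 ± 0.10), while CASP9 was lower in both (-0.24 ± 0.09 and -0.45 ± 0.09). Of the 6 inhibitor of apoptosis genes, GFI1 raised 3 and lowered 2 in attached cells and raised 3 and lowered 3 in floating cells. BIRC7 was higher with GFI1 by 2.11 ± 0.09 and 1.97 ± 0.07, and BIRC3 was lower (-1.14 ± 0.07 and -1.32 ± 0.07). BNIP3, which suspension raised in both kinds of cell, was lower with GFI1 in both conditions (-0.73 ± 0.06 and -0.84 ± 0.06). The genes named here with GFI1 effects were chosen after their values were seen.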
